A study of Rattus norvegicus with 18 samples.

Results

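The isoforms described here are 140 full-length transcripts of rat hippocampus, from 113 genes, whose open reading frame starts at another place than that of the annotated transcript and was predicted by the study to encode a signal peptide that the annotated protein lacks. The members were taken from the study's list of open reading frame variants, in which each entry is marked as gaining or losing a signal peptide, and the read identifier of each one was found in exactly 1 row of the expression tables, which hold 28268 isoforms. The mark rests on sequence, but the study predicted open reading frames only in isoforms that it had classed as translated with the help of the 6 fraction libraries described below, so values analysed here took part in making the list. By the study's classification, 28 members have an N-terminal extension, 42 an N-terminal sequence that diverges from the annotated one and 70 an N-terminal truncation. The gain is a prediction from sequence, and the data below are RNA levels, so neither the peptide nor the place of the protein was measured.

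A signal peptide is a short, mostly hydrophobic stretch at the start of a protein. It is bound by the signal recognition particle as it leaves the ribosome, and the ribosome is then brought to the translocon of the endoplasmic reticulum, where the growing chain enters the membrane or the lumen. Proteins that follow this route are secreted, stay in the endoplasmic reticulum or Golgi apparatus, or reach the plasma membrane and lysosomes. In neurons the route supplies receptors, channels, adhesion proteins and neuropeptides. Many members come from genes whose best-known products do not follow it. By textbook location or function, 18 members belong to genes of mitochondrial proteins, 17 to nuclear and RNA-processing proteins, 14 to cytosolic enzymes and signalling proteins and 13 to ubiquitin and vesicle trafficking proteins. Another 10 belong to neuronal and synaptic proteins and 10 to lipid and sterol enzymes. These 2 groups were made by function and include membrane proteins, so they are not counted as outside the route. A further 22 belong to endoplasmic reticulum and Golgi proteins, 13 to plasma membrane transporters and channels, 12 to secreted and cell-surface proteins and 11 to other membrane and less described proteins. Each gene was put in a single group, and no group was made for lysosomes. Of the lysosomal proteins described below, Pld4 was counted with the endoplasmic reticulum and Golgi and Gpr155 with the cell surface.

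RNA was sequenced from Sprague Dawley rats, males of 4 weeks of age with no genetic change, in 12 libraries of 6 groups with 2 replicates each. Whole hippocampus came from slices. CA1 somata and CA1 neuropil, the cell body layer and the layer of dendrites and axons, were cut from such slices by hand, so neuropil also holds glia and blood vessels. Ribosome-free RNA, monosomes (a single ribosome on the RNA) and polysomes (several) were collected from a sucrose gradient of whole brain lysate treated with cycloheximide, which holds ribosomes in place, so these fractions are not of hippocampus alone. The labels do not say whether replicates came from separate animals, and p-values measure the spread between these libraries. Values are TPM, a length-corrected share of the RNA in a library that can be compared between isoforms. Depth is unknown, because TPM keep no read counts. Reads that fit several isoforms of a gene were divided among them by estimation, and an entry of 0 does not show the RNA to be absent. Replicates correlated at Pearson's r of 0.781 in hippocampus, 0.843 in somata, 0.765 in neuropil, 0.863 in ribosome-free RNA, 0.914 in monosomes and 0.940 in polysomes, over isoforms of at least 1 TPM on log2(TPM + 1). Neuropil replicate 1 stood apart: neuropil replicate 2 correlated better with both somata libraries, at 0.802 and 0.814, than with it.

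In hippocampus, the members were spread over the range of levels found for isoforms at large. The mean of both libraries was at least 1 TPM for 106 of 140 members (75.7%) and for 70.5% of all isoforms, and at least 10 TPM for 53 members (37.9%) and for 39.1% of all isoforms. Their median was 6.40 TPM, against 5.38 TPM for all isoforms and 10.2 TPM for the 384 isoforms that lose a signal peptide. Both hippocampus libraries listed 24 members at 0, and 24 more were at 0 in 1 library, 5 of them with at least 10 TPM in the other. In all 12 libraries 54 members were above 0, and 13 were at 0 in 10 or more. None was at 0 throughout. Together the members took 3309 and 3404 TPM in sum in hippocampus, 3216 to 3525 TPM in the somata, neuropil, monosome and polysome libraries, and 2003 and 2037 TPM in the ribosome-free libraries.

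The most abundant member was the Gpm6a isoform of 2505 nt, with 759 and 697 TPM in hippocampus. Gpm6a encodes a membrane glycoprotein of neuronal processes. Tmem9b, a lysosomal membrane protein, followed with 210 and 162 TPM for its isoform of 2232 nt. Naxe, a mitochondrial enzyme that repairs damaged NADH and NADPH, had 131 and 115 TPM (1252 nt). Krtcap2, a subunit of the complex that adds N-linked sugars in the endoplasmic reticulum, had 125 and 109 TPM (673 nt, the shortest member). Its range overlapped those of Naxe and of Ube2k, a ubiquitin-conjugating enzyme with 104 and 127 TPM (2285 nt). Tbpl1, a relative of the TATA-binding protein, had 111 and 117 TPM (2191 nt), and Emc7, a subunit of the complex that inserts membrane proteins into the endoplasmic reticulum, had 120 and 90.6 TPM (1209 nt). From Naxe to Emc7 neighbours in the order overlapped, so the order within these 5 is not set by the data. Cldn10, a claudin of tight junctions, had 94.3 and 83.7 TPM (976 nt), Acsl6, which activates long-chain fatty acids, 63.0 and 92.4 TPM (2721 nt), and Gas7, an actin-associated protein of neurite outgrowth, 79.3 and 67.4 TPM (2995 nt). The most abundant members thus included products of the nucleus, the mitochondrion and the cytosol beside those of membranes.

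**Figure D1:**
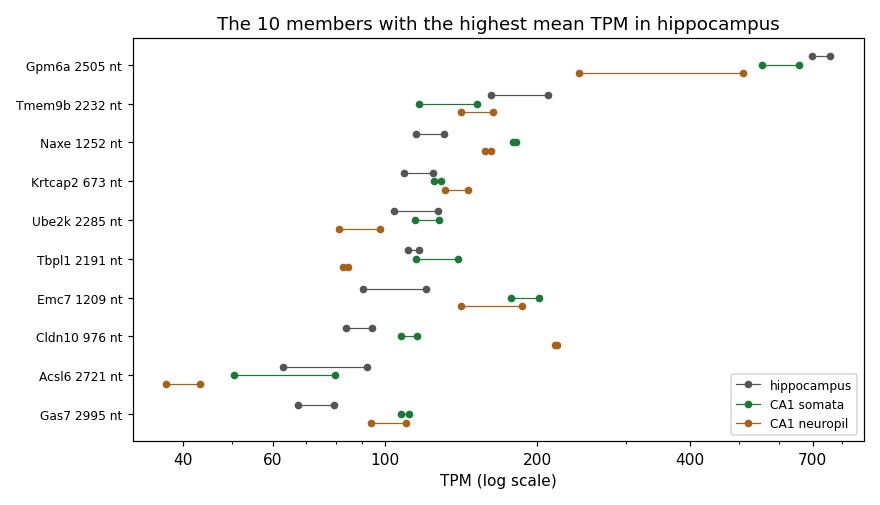
TPM (log axis) of the 10 members with the highest mean in hippocampus; each point is 1 library, the line joins both libraries of a group, and hippocampus and the CA1 compartments come from tables made separately. Gpm6a stands above the others in each of the 6 libraries plotted, and Cldn10 has the widest gap between somata (108 and 116 TPM) and neuropil (219 and 216 TPM).

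The gradient fractions were compared by the share of each member in the RNA of a fraction. TPM of each library sum to the same total, and how much RNA each fraction held is not known. A higher TPM in a fraction thus does not show that most copies of an RNA were in it. In ribosome-free RNA the 5 most abundant isoforms took 15.9% and 16.0% of all TPM, against 2.87% and 2.99% in polysomes. This leaves less of the total for other isoforms in ribosome-free RNA, and its part in the differences below was not tested. Of the 140 members, 104 averaged 1 TPM or more across the 6 fraction libraries and were tested, and 36 fell below. In polysomes 41 tested members had a higher TPM than in ribosome-free RNA and 6 a lower one, at an adjusted p under 0.05 (39.4% and 5.77%). Of all 19667 isoforms tested, 34.1% were higher and 11.1% lower. The median difference in log2(TPM + 1) was 0.99 for the tested members and 0.63 for all isoforms, so much of the rise is shared by isoforms at large. The isoforms that lose a signal peptide gave 128 higher (39.3%) and 30 lower (9.2%) of 326 tested, with a median of 0.87. These counts are not independent evidence for the members, because these 6 libraries took part in making the list. Under scalings that remove most of the common shift the split changed: quantile normalization left 28 higher and 14 lower members, and median ratios 29 and 16, so that the share of calls in the higher direction fell from 87.2% to 66.7% and 64.4%. The fall was general, with 20.5% of all isoforms higher and 17.6% lower after quantile normalization and 21.2% and 17.8% after median ratios. All 28 and 29 were among the 41. Leaving out 1 library gave 29 to 44 higher and 2 or 3 lower members, and each of the 4 libraries compared moved the count of lower members from 6 to 2 or 3.

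**Figure D2:**
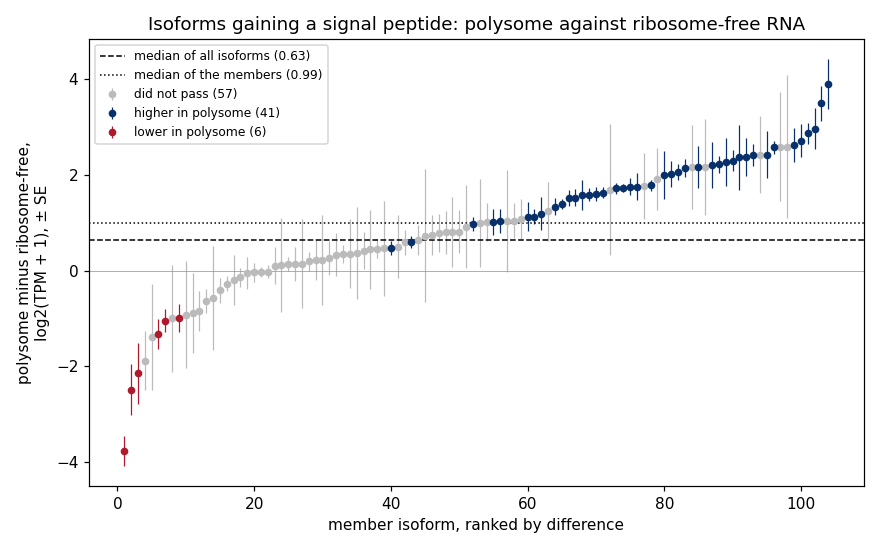
Difference between polysome and ribosome-free RNA in log2(TPM + 1), with its SE, for the 104 tested members in order of size, over 2 libraries a group. The points run from -3.76 to 3.89, with 41 higher, 6 lower and 57 that did not pass, and the median of the members lies at 0.99 against 0.63 for all isoforms.

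Among called members that averaged 10 TPM or more in the fractions, Gas7 had the steepest rise. Its isoform of 2995 nt had 18.9 and 12.1 TPM in ribosome-free RNA, 89.7 and 94.0 TPM in monosomes and 123 and 111 TPM in polysomes. Both polysome libraries were above both monosome libraries, and those above the ribosome-free ones. The polysome mean was 7.53 times the ribosome-free mean, a difference of 2.87 ± 0.22 (SE) in log2(TPM + 1) with an adjusted p of 0.000613. Adprhl2, a hydrolase that removes ADP-ribose from proteins, had 19.3 and 23.5 TPM in ribosome-free RNA, 53.9 and 50.0 TPM in monosomes and 132 TPM in each polysome library (1764 nt). The difference between polysome and ribosome-free RNA was 2.57 ± 0.13 (SE, adjusted p = 0.000281). These isoforms also stayed past the threshold in all 13 alternatives tried.

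Fads3, a desaturase of sphingolipids, and Olfm2, a secreted olfactomedin, followed. For Fads3 (1802 nt) the ribosome-free libraries had 6.67 and 10.7 TPM and the polysome libraries 50.5 and 48.7 TPM, a difference of 2.42 ± 0.24 (SE) in log2(TPM + 1) with an adjusted p of 0.00117. Olfm2 (1890 nt) went from 13.8 and 20.9 TPM to 84.6 and 90.2 TPM, a difference of 2.29 ± 0.22 (SE, adjusted p = 0.00116). Both kept their calls in the 13 alternatives. The last members named in this direction were less steady. Abcb8, a transporter of the inner mitochondrial membrane, had 0.74 and 5.86 TPM in ribosome-free RNA and 20.4 and 13.8 TPM in polysomes (2568 nt, 2.37 ± 0.68, adjusted p = 0.0403), and lost its call in 10 of 13 alternatives. Without ribosome-free replicate 1 its difference was 1.38, with an adjusted p of 0.0507. Auh, a mitochondrial enzyme of leucine breakdown that also binds RNA, had 14.1 and 4.51 TPM against 35.7 and 51.5 TPM (1178 nt, 2.26 ± 0.51, adjusted p = 0.0179), and lost its call in 4, among them the fits without either polysome library. Abcb8 also lost its call without either of these. For both genes the ribosome-free libraries differed severalfold from each other.

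The 6 members lower in polysomes belong to genes of different roles. Gpm6a had 547 and 571 TPM in ribosome-free RNA, 453 and 652 TPM in monosomes and 319 and 227 TPM in polysomes. Only the polysome libraries stood apart, and the difference between polysome and ribosome-free RNA was -1.05 ± 0.24 (SE) in log2(TPM + 1), with an adjusted p of 0.0183. Egfl7, a secreted factor of endothelial cells that guides vessel growth, had lower values for 2 of its 3 member isoforms. The isoform of 1305 nt fell from 20.7 and 22.1 TPM to 7.66 and 8.28 TPM (-1.32 ± 0.31, adjusted p = 0.0220) and that of 1884 nt from 13.5 and 17.3 TPM to 8.64 and 5.94 TPM (-0.99 ± 0.28, adjusted p = 0.0386). Leaving out any 1 of the 4 libraries ended the calls of both Egfl7 isoforms, and leaving out any but polysome replicate 1 ended that of Gpm6a. Their values stayed negative throughout.

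Arrdc1, Trpc4 and Pomt1 complete the 6; they had a mean under 10 TPM and were chosen after their values were seen. Arrdc1, an arrestin-domain protein that drives budding of vesicles from the plasma membrane, had 23.4 and 17.4 TPM in ribosome-free RNA, 5.23 and 4.17 TPM in monosomes and 0.53 and 0.59 TPM in polysomes (2211 nt). The ribosome-free mean was 36.4 times the polysome mean, a difference of -3.76 ± 0.31 (SE, adjusted p = 0.000756) that held in all 13 alternatives. Trpc4, a cation channel of the plasma membrane, had 4.89 and 8.54 TPM in ribosome-free RNA, was listed at 0 in both monosome libraries and had 1.86 and 0 TPM in polysomes (3079 nt, -2.15 ± 0.64, adjusted p = 0.0447). It lost its call in 7 of 12 alternatives, among them the fits without either ribosome-free library or without polysome replicate 2, where the difference was -1.39. Pomt1, which starts the O-mannose chains of alpha-dystroglycan in the endoplasmic reticulum, had 7.27 and 2.83 TPM in ribosome-free RNA and was listed at 0 in all 4 monosome and polysome libraries and in both CA1 compartments (3413 nt). Its call was lost without either polysome library, with an adjusted p of 0.0646 and 0.0642.

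Among the rises, 6 of the 41 higher members were listed at 0 in both ribosome-free libraries, so no fold is given for them. The shorter member of Arih2, a ubiquitin ligase, had 15.3 and 5.82 TPM in monosomes and 17.7 and 10.8 TPM in polysomes (2401 nt). Ptpdc1, a protein phosphatase, had 4.08 and 2.66 TPM and then 9.54 and 11.2 TPM for its isoform of 2813 nt. The other 4 were isoforms of Tut1, which adds uridines to the end of a spliceosomal RNA, of Slc25a25, a mitochondrial carrier of ATP, of Pigv, which builds glycosylphosphatidylinositol anchors, and of Hsd17b7, an enzyme of cholesterol synthesis. Their polysome values were between 2.66 and 8.05 TPM. Without the 8 tested members that were at 0 in both libraries of either side, the median difference was 0.87 over 96.

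By role, mitochondrial and lipid genes had the largest shares of higher members, where 34.1% of all isoforms were higher. The role groups are small, no test of the difference between them was made, and these libraries took part in making the list. Of 11 tested mitochondrial members 8 rose and 0 fell in polysomes, with a median difference of 1.39 in log2(TPM + 1). They include Coq10a, a coenzyme Q-binding protein, with 39.9 and 38.6 TPM in ribosome-free RNA and 108 and 101 TPM in polysomes. Naxe is an exception by its values, 176 and 158 TPM in ribosome-free RNA and 170 and 158 TPM in polysomes. Of 9 lipid and sterol members 6 rose and 0 fell, but the 6 belong to 4 genes, since 3 are isoforms of Hsd17b7. Secreted and cell-surface members gave 6 higher and 2 lower of 11, the 2 being the Egfl7 isoforms.

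Endoplasmic reticulum and Golgi members gave 5 higher and 1 lower of 16, and their median of 0.72 was near that of all isoforms. Emc7 had 90.0 and 88.5 TPM in ribosome-free RNA, 186 and 203 TPM in monosomes and 306 and 290 TPM in polysomes, the highest polysome mean of any member, although Gpm6a had 319 TPM in 1 of these libraries. Zdhhc5, a palmitoyl transferase, went from 16.4 and 17.0 TPM to 55.4 and 51.5 TPM. Tram1, a protein of the translocon itself, had 15.4 and 15.6 TPM in ribosome-free RNA, 34.6 and 40.3 TPM in monosomes and 31.6 and 31.1 TPM in polysomes (3014 nt). Its difference between polysome and ribosome-free RNA was 0.97 ± 0.14 (SE, adjusted p = 0.00439), and 0.27 with an adjusted p of 0.215 after quantile normalization. Plasma membrane transporters and channels gave 1 higher and 1 lower of 8. Of 7 neuronal and synaptic members 2 rose, Gas7 and Ncdn, and 1 fell, Gpm6a.

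Some of the smaller rises depend on the scaling. Ncdn, a cytoplasmic protein of neurons, had 42.7 and 36.0 TPM in ribosome-free RNA and 53.6 and 56.7 TPM in polysomes (2438 nt, 0.48 ± 0.15, adjusted p = 0.0473), and the Tmem9b isoform of 2232 nt had 84.4 and 71.5 TPM against 114 and 122 TPM (0.60 ± 0.13, adjusted p = 0.0164). Both lie under the median of all isoforms, and both turned negative after quantile normalization, to -0.25 and -0.079, and after median ratios, to -0.17 and -0.061. Leaving out ribosome-free replicate 2 or either polysome library also ended both calls. The nuclear and RNA-processing members had 2 calls, both higher, of 11, in Eif4a3 and Tut1. Cytosolic enzymes and signalling proteins had 5 higher and 0 lower of 11, ubiquitin and trafficking proteins 4 and 1 of 10, and the remaining membrane proteins 2 and 0 of 10.

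Between the ribosome-bound fractions fewer members differed. In polysomes 9 members had a higher TPM than in monosomes and 7 a lower one, of 104 tested (8.65% and 6.73%). Both directions took 11.6% of all isoforms tested. The members' shares were lower, but they rest on 9 and 7 members, and the difference was not tested. The median difference in log2(TPM + 1) was 0.13 for the tested members and -0.021 for all isoforms. Leaving out 1 library gave 3 to 5 higher and 1 lower, so these calls rest on the spread of all 6 libraries: without polysome replicate 1 they were 3 and 1, without polysome replicate 2 they were 5 and 1, and without monosome replicate 1 or 2 they were 4 or 5 and 1.

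Eif4a3, the helicase at the core of the exon junction complex, had the largest difference in favour of polysomes among called members of 10 TPM or more. Its isoform of 2385 nt had 9.67 and 10.6 TPM in ribosome-free RNA, 10.75 and 10.98 TPM in monosomes and 39.5 and 33.7 TPM in polysomes. The difference between polysomes and monosomes was 1.66 ± 0.18 (SE, adjusted p = 0.00398), and monosomes and ribosome-free RNA were close to each other. Adprhl2 differed by 1.33 ± 0.13 (adjusted p = 0.00343), with the values given above. C1qb, a chain of the complement protein C1q made by microglia, had 19.3 and 25.2 TPM in ribosome-free RNA, 46.5 and 41.2 TPM in monosomes and 116 and 98.3 TPM in polysomes (1146 nt, 1.27 ± 0.18, adjusted p = 0.00857). Gpd1, an enzyme that links glycolysis and lipid synthesis, had 44.0 and 40.6 TPM in monosomes and 103 and 95.1 TPM in polysomes (2398 nt, 1.21 ± 0.13, adjusted p = 0.00430). Ndrg2, abundant in astrocytes, had 27.95 and 27.26 TPM against 66.9 and 60.4 TPM (2206 nt, 1.17 ± 0.17, adjusted p = 0.00935). For these 5 members the polysome libraries lay above every library of the other fractions. Of these calls those of Eif4a3, Adprhl2 and Gpd1 held in all 13 alternatives, and C1qb and Ndrg2 lost theirs without any 1 of the 4 libraries compared.

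Other members were lower in polysomes than in monosomes. Rnd3, a small GTPase that acts on the actin cytoskeleton, had 15.3 and 17.1 TPM in monosomes and 7.89 and 5.56 TPM in polysomes (2831 nt, -1.17 ± 0.25 (SE), adjusted p = 0.0288). Gpm6a was lower in polysomes than in monosomes by 1.01 ± 0.24 (adjusted p = 0.0375). Ifrd2 had 16.5 and 18.9 TPM in monosomes and 8.63 and 8.75 TPM in polysomes (2077 nt, -0.95 ± 0.20, adjusted p = 0.0273). Tmem9b (2232 nt) had 213 and 186 TPM against 114 and 122 TPM (-0.75 ± 0.13, adjusted p = 0.0160), and Krtcap2 (673 nt) 150 and 126 TPM against 96.2 and 90.4 TPM (-0.56 ± 0.14, adjusted p = 0.0462). Rnd3, Gpm6a, Ifrd2, Tmem9b and Krtcap2 lost their calls in 5 to 8 alternatives, among them each fit without 1 of the 4 libraries compared. Arrdc1 was also lower in polysomes, and Coq10a, Emc7 and Dgat1 were also higher, the last of which was listed at 0 in both monosome libraries and had 5.07 and 7.55 TPM in polysomes.

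**Figure D3:**
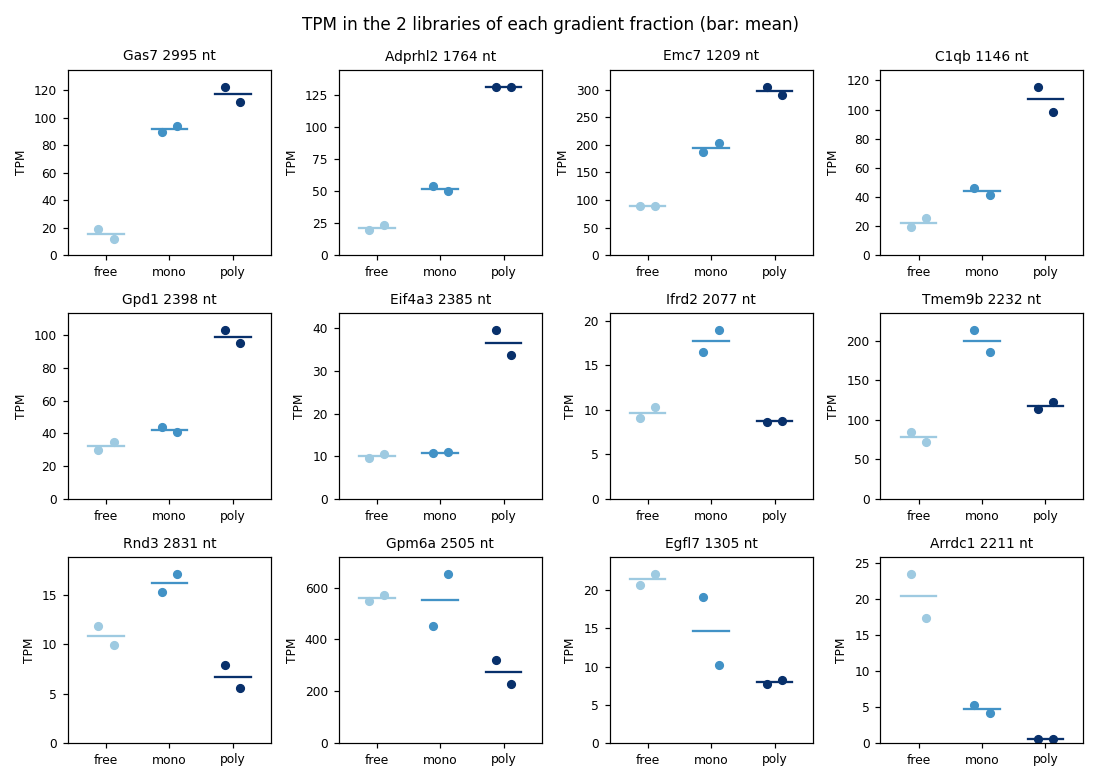
TPM in ribosome-free RNA (free), monosomes (mono) and polysomes (poly) for 12 members that the text describes; points are libraries, bars are means, and each panel has its own axis from 0. The top 6 panels have their highest libraries in polysomes, Ifrd2, Tmem9b and Rnd3 have them in monosomes, and Egfl7 and Arrdc1 have them in ribosome-free RNA, while the Gpm6a panel shows monosome libraries (453 and 652 TPM) on either side of the ribosome-free ones.

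Monosomes against ribosome-free RNA gave 40 members higher and 5 lower of 104 (38.5% and 4.81%), where 32.1% and 7.3% of all isoforms tested were higher and lower. This comparison shares its libraries with the others between fractions, and its median was 0.93 for the tested members and 0.69 for all isoforms. After quantile normalization 23 members were higher and 10 lower, all 23 among the 40, where 16.1% and 13.7% of all isoforms were. After median ratios the members were 21 and 10 and the shares of all isoforms 15.4% and 15%, so that the higher direction took 69.7% and 67.7% of the calls in place of 88.9%. Without either monosome library 25 members were higher, and without any 1 of the 4 libraries 1 to 3 were lower. Gas7 again had the largest difference among called members of at least 10 TPM, 2.52 ± 0.22 (SE, adjusted p = 0.00150). The Tmem9b isoform of 2176 nt had 14.3 and 20.2 TPM in ribosome-free RNA, 84.8 and 82.1 TPM in monosomes and 47.1 and 75.8 TPM in polysomes, and differed by 2.23 ± 0.28 (adjusted p = 0.00378) between monosomes and ribosome-free RNA.

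Olfm2 (1.98 ± 0.22, adjusted p = 0.00281) and Fads3 (1.74 ± 0.24, adjusted p = 0.00478) were also higher in monosomes than in ribosome-free RNA. Mindy3, a deubiquitinase, had 3.13 and 6.66 TPM in ribosome-free RNA, 17.0 and 23.1 TPM in monosomes and 6.35 and 12.1 TPM in polysomes (1784 nt, 1.89 ± 0.45, adjusted p = 0.0259). Mier1, a transcriptional corepressor, had 5.82 and 2.53 TPM, then 21.0 and 13.1 TPM, then 10.4 and 8.41 TPM (2812 nt, 1.84 ± 0.42, adjusted p = 0.0236). Mindy3 and Mier1 lost their calls in 5 and 6 alternatives, among them those without either monosome library and without ribosome-free replicate 1 for Mindy3 or 2 for Mier1. At the low end of the higher calls were Krtcap2 (673 nt, 0.53 ± 0.14, adjusted p = 0.0353), Ptpmt1, a mitochondrial phosphatase of cardiolipin synthesis (1131 nt, 0.78 ± 0.17, adjusted p = 0.0188), Ifrd2 (0.81 ± 0.20, adjusted p = 0.0283), Ncdn (0.83 ± 0.15, adjusted p = 0.0108) and Ndrg2 (0.88 ± 0.17, adjusted p = 0.0138). Each of these 5 lost its call without monosome replicate 2. None of them passed after quantile normalization, and Krtcap2 turned negative, to -0.17, after median ratios. Dph5, a methyltransferase of diphthamide synthesis, fell from 25.8 and 24.8 TPM to 12.8 and 16.4 TPM (1483 nt, -0.76 ± 0.20, adjusted p = 0.0321) and had 27.1 and 22.2 TPM in polysomes. Its call was lost without any 1 of the 4 libraries compared. The other 4 lower members, named after their values were seen, were Arrdc1, Trpc4, Pomt1 and Fdps, the enzyme that makes farnesyl diphosphate for sterols and protein prenylation, whose isoform of 2195 nt had 13.4 and 10.9 TPM in ribosome-free RNA and 4.80 and 6.02 TPM in monosomes.

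By mean level, 50 of the 104 tested members were highest in polysomes (48.1%), 39 in monosomes (37.5%) and 15 in ribosome-free RNA (14.4%). Over all isoforms tested the shares were 40.8% in polysomes and 39.2% in monosomes. The N-terminal classes gave different shares. Truncations were highest in polysomes in 29 of 49 (59.2%), divergent N-termini in 16 of 33 (48.5%) and extensions in 5 of 22 (22.7%), and 12 of the 22 extensions were highest in monosomes. The shares passing the test of polysomes against ribosome-free RNA were closer together, with 19 of 49 truncations, 12 of 33 divergent N-termini and 10 of 22 extensions higher. No test of the difference between classes was made, and members of 1 gene share most of their sequence.

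The short and the long members were also compared between monosomes and polysomes, with no test of the difference. The members measured 673 to 5301 nt with a median of 2407 nt, against 2235 nt for all isoforms. Of the 47 shortest members, up to 2077 nt, 38 were tested. In polysomes 5 had a higher TPM than in monosomes and 3 a lower one. The median difference was 0.45 in log2(TPM + 1), with quartiles of -0.23 and 0.82. Of the 47 longest, from 2831 nt, 32 were tested, and 0 were higher and 1 was lower, Rnd3, with a median of -0.30 and quartiles of -0.87 and 0.33, so the ranges between quartiles overlap. Over all isoforms the medians at the same limits were -0.012 for the 9022 short ones tested and -0.079 for the 5663 long ones. The shares called among these were 16.0% higher and 14.6% lower for the short ones and 6.45% and 9.20% for the long ones.

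Of the genes with several members, 8 have 3 and 11 have 2. In 12 of these 19 genes the same isoform had the highest mean in all 6 groups. In Gas7 the isoform of 2995 nt took at least 98.0% of the summed TPM of the 3 members in every group, and those of 2571 and 3041 nt had at most 0.91 and 2.78 TPM in any library. Smarca2, the ATPase of a chromatin remodelling complex, had 48.2 and 30.4 TPM in hippocampus for its isoform of 2079 nt, 26.0 and 30.3 TPM in somata and 12.6 to 18.6 TPM in the fractions. Its isoforms of 2027 and 2101 nt were at 0 in most libraries and reached 4.55 and 9.50 TPM. Ptpdc1 was highest in the isoform of 4975 nt throughout, with 28.3 and 24.8 TPM in hippocampus, 63.0 and 63.4 TPM in somata, 34.6 and 41.8 TPM in neuropil and 11.6 to 20.1 TPM in the fractions. Its isoform of 3106 nt had 20.3 and 21.2 TPM in somata and 4.10 and 16.7 TPM in neuropil. Rce1, a protease of prenylated proteins in the endoplasmic reticulum, was highest in its isoform of 1499 nt, which varied from 0 to 12.3 TPM, and its isoforms of 1368 and 1508 nt stayed at or under 5.91 TPM.

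In the other 4 genes with 3 members the leading isoform differed between groups. The clearest was the less described gene RGD1305713. Its isoform of 2025 nt had 33.6 and 46.7 TPM in hippocampus, 37.0 and 20.9 TPM in somata and 26.9 and 22.1 TPM in neuropil, but 5.99 and 0 TPM in ribosome-free RNA, 0 and 0.01 TPM in monosomes and 2.15 and 0 TPM in polysomes. Its isoform of 1778 nt was listed at 0 in both hippocampus and both neuropil libraries, and had 5.51 and 14.3 TPM in somata, 3.14 and 16.0 TPM in ribosome-free RNA, 39.2 and 24.6 TPM in monosomes and 24.96 and 30.63 TPM in polysomes. The isoform of 2241 nt was above 0 in fraction libraries only, in 5 of the 6, at up to 7.26 TPM. The leading isoform by mean thus differed between the hippocampal tables and the fraction table, although both list both isoforms and that of 2025 nt was above that of 1778 nt in ribosome-free replicate 1. The tables also differ in tissue (hippocampus against whole brain) and, by the study's methods, in library kit, which cannot be told apart.

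Egfl7 had all 3 isoforms in most libraries. That of 1305 nt led in hippocampus, somata, ribosome-free RNA and monosomes, with 12.2 and 15.4 TPM in hippocampus, and that of 1541 nt led in neuropil and polysomes, with 42.7 and 7.54 TPM in neuropil. In neuropil replicate 1 the isoform of 1305 nt was at 0, where the isoform of 1541 nt had its highest value. Hsd17b7 was led by its isoform of 3963 nt (10.9 and 10.4 TPM in hippocampus) except in somata, where the isoform of 1859 nt had 10.1 and 7.45 TPM and the longer one 8.39 and 6.64 TPM, ranges that overlap. Its isoform of 1778 nt was at 0 in hippocampus, neuropil and ribosome-free RNA and had 2.69 and 4.72 TPM in polysomes. Slc35a5, of the nucleotide sugar transporter family, had 4.15 and 7.45 TPM (2760 nt) and 2.47 and 3.98 TPM (3074 nt) in hippocampus, and its isoform of 3104 nt was above 0 in 1 polysome library only.

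**Figure D4:**
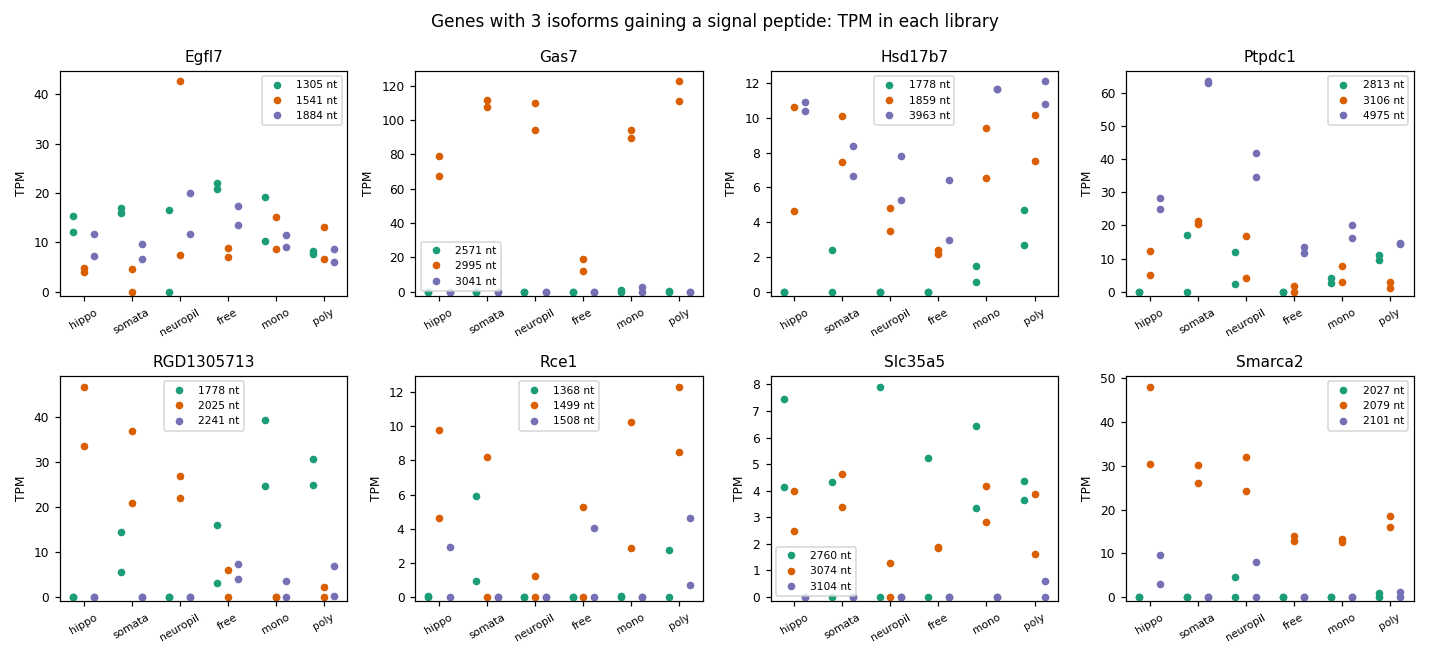
TPM of each member isoform in each of the 12 libraries for the 8 genes with 3 members; colours mark read length, each point is a library, and each panel has its own axis. One isoform leads in every group in Gas7, Ptpdc1, Rce1 and Smarca2, while in RGD1305713 the isoform of 2025 nt is the higher one in hippocampus, somata and neuropil and that of 1778 nt in the fractions.

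Among the 11 genes with 2 members, Ncdn, chosen after its values were seen, had another leading isoform in hippocampus than in the other groups. Its isoform of 2438 nt was listed at 0 in both hippocampus libraries, where that of 3279 nt had 3.68 and 11.9 TPM. In CA1 somata the isoform of 2438 nt had 144 and 164 TPM and in neuropil 80.7 and 184 TPM, and it was at least 36.0 TPM in every fraction library. CA1 is a region of the hippocampus, and the hippocampus entries of this isoform are given only as listed at 0. Tspan31, a tetraspanin with 1 member (1510 nt) and also chosen after its values were seen, was listed at 0 in all 6 libraries of hippocampus, somata and neuropil and had 35.2 and 29.3 TPM in polysomes of whole brain.

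Somata and neuropil were compared to ask which members lie towards the cell bodies or the processes. Of 140 members 110 averaged 1 TPM or more across these 4 libraries and were tested with limma. None passed an adjusted p under 0.05, as for all 20393 isoforms tested, 0% of which were called in either direction. The smallest adjusted p of any isoform was 0.179. The study compared isoforms of neuronal genes that have several isoforms, and reported some as enriched in each compartment. Its genes come from the same collection of transcripts, and its methods name no test for this comparison, so the tests may differ. The test used here has limited power with 2 libraries a group. On simulated data it found again 91 of 200 isoforms moved by 3 on the log2 scale. For this reason 0 calls here does not show that no isoform is localized. One of the fits tried, chosen after seeing the data, joined an untrended prior variance to a pseudocount of 0.1 and called 2 members lower in neuropil, Anapc4 and Trpc4, both listed at 0 in both neuropil libraries. It called 1.01% of all isoforms higher and 1.27% lower. At an unadjusted p under 0.05, 7 members were higher in neuropil and 7 lower, against 7.57% and 7.26% of all isoforms, where 14 of 110 is about the same share. The groups did not overlap in 26 members higher and 27 lower in neuropil, and in 22.8% and 22.1% of all isoforms tested. The median difference in log2(TPM + 1) was 0.0011 for the tested members and 0.014 for all isoforms, and without neuropil replicate 1 it was 0.018 with 0 calls. The values that follow are therefore differences that did not pass the test.

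The highest values in favour of neuropil among members of at least 10 TPM whose groups did not overlap came in part from markers of other cells than neurons. Egfl7 (1541 nt) had 0 and 4.51 TPM in somata against 42.7 and 7.54 TPM in neuropil, a difference of 3.04 ± 1.27 (SE, adjusted p = 0.385) that ran from 1.81 without somata replicate 1 to 4.27 without somata replicate 2, and was 1.86 without neuropil replicate 1. Ndrg2 had 7.70 and 0.70 TPM in somata and 17.7 and 29.1 TPM in neuropil, a difference of 2.63 ± 0.93 (adjusted p = 0.325) that was 3.80 without somata replicate 1 and 1.45 without somata replicate 2. Nup85, a subunit of the nuclear pore, had 2.89 and 5.48 TPM against 34.8 and 8.59 TPM (2056 nt, 1.88 ± 0.80, adjusted p = 0.393), and 0.93 without neuropil replicate 1 but 2.84 without neuropil replicate 2. Ncdn (3279 nt) had 2.26 and 10.6 TPM against 18.4 and 16.9 TPM (1.60 ± 0.73, adjusted p = 0.419), and 0.68 without somata replicate 1 but 2.51 without somata replicate 2. Each of these 4 differences thus moved by over 1.5 times with 1 library left out.

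At the other end, values were lower in neuropil. Slc6a15, a transporter of neutral amino acids in neurons, had 54.3 and 39.1 TPM in somata and 0 and 22.7 TPM in neuropil (2526 nt, -3.27 ± 1.61, adjusted p = 0.448), and -0.99 without neuropil replicate 1 but -5.56 without neuropil replicate 2. Its other member isoform (3049 nt) was at 0 in both somata libraries and had 19.6 and 0 TPM in neuropil, so the library that listed the first at 0 held the second. Abcb8 had 23.1 and 13.9 TPM in somata against 10.5 and 0 TPM in neuropil (-2.48 ± 1.31, adjusted p = 0.481), and -4.24 without neuropil replicate 1 but -0.72 without neuropil replicate 2. Ptpdc1 (3106 nt) differed by -1.19 ± 0.69 (adjusted p = 0.519), and by -0.29 without neuropil replicate 1 but -2.09 without neuropil replicate 2. Gpm6a had 659 and 557 TPM in somata against 509 and 242 TPM in neuropil (-0.79 ± 0.39, adjusted p = 0.452), and -1.32 and -0.25 without the first and the second neuropil library. Gpr155, a lysosomal membrane protein that senses cholesterol, had 47.9 and 50.6 TPM against 19.7 and 43.4 TPM (5301 nt, the longest member, -0.73 ± 0.42, adjusted p = 0.517), and -0.18 and -1.28 without the first and the second.

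**Figure D5:**
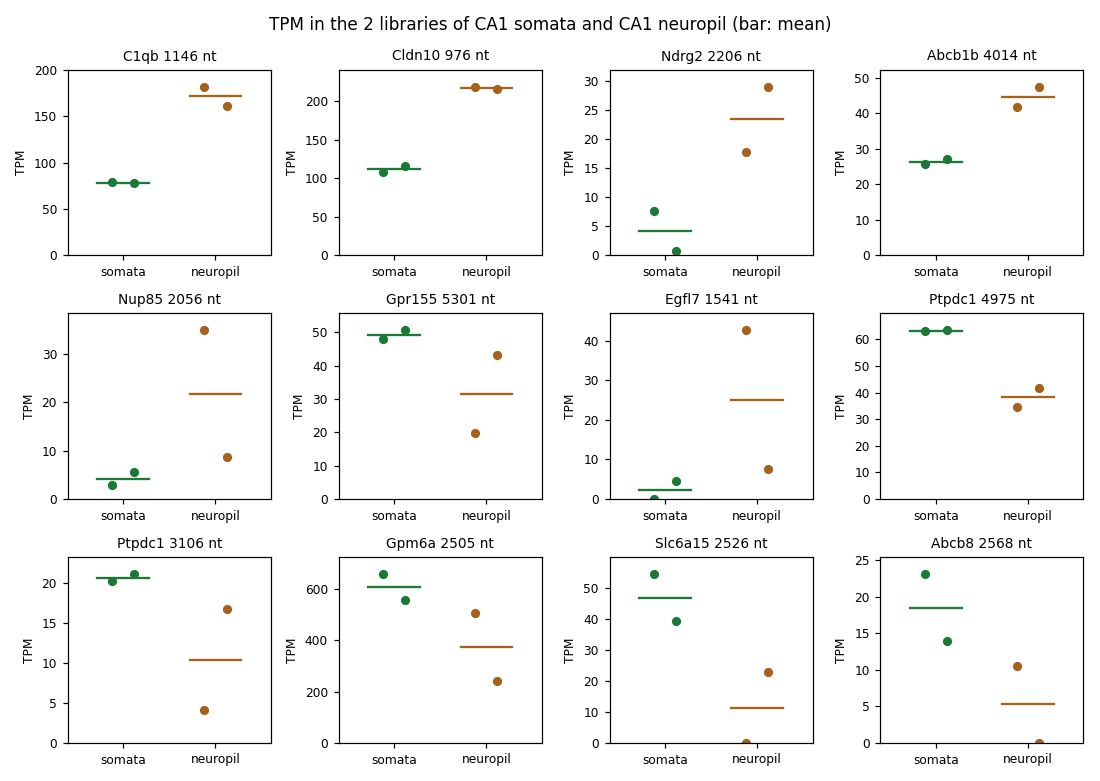
TPM in the 2 libraries of CA1 somata and of CA1 neuropil for 12 members; points are libraries, bars are means, and each panel has its own axis from 0. C1qb, Cldn10 and Abcb1b have close replicates with neuropil above somata, and Egfl7, Nup85 and Slc6a15 have neuropil libraries far from each other.

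Members that mark a cell type were looked at beside the isoforms of marker genes that lose a signal peptide, because only listed isoforms carry gene names. C1qb, of microglia, had 79.3 and 77.5 TPM in somata and 182 and 161 TPM in neuropil. Cldn10, of astrocytes, had 108 and 116 TPM against 219 and 216 TPM. Abcb1b, a P-glycoprotein drug transporter counted here with the endothelial markers, had 25.6 and 27.1 TPM against 41.8 and 47.6 TPM. In these 3 genes, and in Ndrg2, both neuropil libraries lay above both somata libraries. Some other markers of these cells did not separate. Egfl7 of 1305 nt had 15.9 and 16.9 TPM in somata and 0 and 16.6 TPM in neuropil, while its isoforms of 1541 and 1884 nt were higher in both neuropil libraries. Slc39a12 had 4.02 and 0 TPM in somata and 3.73 and 0.05 TPM in neuropil. The summed level of the 6 astrocyte marker isoforms was 455 and 529 TPM in somata and 850 and 1005 TPM in neuropil. It was 89.6 and 96.3 TPM against 200 and 185 TPM for the 7 microglial ones, 143 and 150 TPM against 281 and 300.2 TPM for the 8 endothelial ones, and 119 and 141 TPM against 218 and 223 TPM for the 7 oligodendrocyte ones. All 4 sums were higher in both neuropil libraries, but a single isoform was the largest part of each. For astrocytes this was Bcan, with 265 and 334 TPM in somata and 464 and 601 TPM in neuropil. For endothelium it was Cldn5 (83.4 and 87.3 TPM against 160 and 194 TPM) and for oligodendrocytes Tf (78.2 and 94.7 TPM against 106 and 130 TPM). The smaller Fgfr3, Eng and Gpr37 isoforms of these sums were also higher in both neuropil libraries. Most of the microglial sum was C1qb, so it adds little beside the values of that gene. The next microglial isoform, Pld4 of 1999 nt, had 4.78 and 14.00 TPM in somata and 13.35 and 14.02 TPM in neuropil, ranges that overlap. The 19 neuronal marker isoforms summed to 5483 and 5663 TPM in somata and 5420 and 6273 TPM in neuropil, ranges that overlap. Cpe, a carboxypeptidase that processes neuropeptides (2376 nt), made up 72.3% to 92.2% of this sum in the 12 libraries. Without it, a choice made after seeing the data, the other 18 summed to 926 and 863 TPM in somata and 423 and 648 TPM in neuropil, lower in both neuropil libraries. Fewer cells of a type and less RNA per cell cannot be told apart in these bulk samples, and the part of glia, vessels and neurons in the values of other members was not tested.

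The marker sums also differed between fractions. Over all isoforms tested, the median difference from ribosome-free RNA was 0.63 in polysomes and 0.69 in monosomes, in log2(TPM + 1). A rise from ribosome-free RNA is thus not particular to a cell type, and differences between cell types were not tested. The astrocyte sum was 106 and 138 TPM in ribosome-free RNA, 413 and 433 TPM in monosomes and 517 and 528 TPM in polysomes. The microglial sum, mostly C1qb, was 23.4 and 30.2 TPM, 57.1 and 54.0 TPM and 131 and 119 TPM. The oligodendrocyte sum was highest in monosomes, with 41.1 and 77.7 TPM in ribosome-free RNA, 186 and 195 TPM in monosomes and 137 and 138 TPM in polysomes. The endothelial sum went from 92.0 and 103 TPM to 122 and 120 TPM and 137 and 153 TPM. The neuronal sum went from 1525 and 1664 TPM to 2372 and 2280 TPM and 2494 and 2560 TPM, and without Cpe from 338 and 352 TPM to 658 and 610 TPM and 621 and 614 TPM. Several marker members were near 0. Pld4, an enzyme of microglial lysosomes, had its isoform of 1943 nt at 0 or 0.01 TPM in all 12 libraries, while that of 1999 nt had 13.6 and 11.6 TPM in hippocampus and rose from 2.51 and 3.15 TPM in ribosome-free RNA to 12.3 and 17.0 TPM in polysomes. Slc7a10, an amino acid transporter of astrocytes (1681 nt), was at 12.3 TPM in 1 hippocampus library and at most 0.08 TPM elsewhere. Slc39a12, a zinc transporter of astrocytes (2975 nt), was at 0 in both hippocampus libraries and at most 5.63 TPM in the others. Tmem144, of oligodendrocytes (3081 nt), was above 0 in 2 libraries, at 2.59 and 0.25 TPM, and Slc22a8, an organic anion transporter of endothelium (2966 nt), reached at most 1.92 TPM.

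Of the neuronal markers, Sv2a, a protein of synaptic vesicles, had 23.63 and 22.01 TPM in hippocampus but 4.94 and 6.43 TPM in somata and 11.3 and 7.24 TPM in neuropil (3158 nt). The isoforms of Syn2, a synapsin (3496 nt), and of Gpr12, an orphan receptor (1167 nt), stayed at or under 2.19 and 3.78 TPM in every library. Ncdn and Slc6a15 are given above. The levels of the annotated transcripts of these genes were not analysed here.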

How the data were processed

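The deposited values are TPM per isoform, made by the authors with RSEM and Bowtie 2 against the 28268 full-length transcripts, in 3 tables written to 2 decimals. The labels also name TopHat2 and the rn6 build. The RSEM version is not given in the sources used here. By the study's methods, hippocampal libraries were made with a kit for mRNA and fraction libraries with one for total RNA. The labels give polyA RNA for all samples, so the sources differ on the fractions. RSEM divides reads among isoforms that share sequence. The tables were treated as made separately, with tests only within a table. The 6 ribosome footprinting libraries were not used.

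Members were matched on the read identifier, of which the list keeps 55 characters. Of 385 listed isoforms that lose a signal peptide 384 were matched. Gene names come from the list, and 111 of 113 symbols were current in the RefSeq gene table. Isoforms that averaged 1 TPM or more in a table entered a two-sided limma test (limma 3.58.1, R 4.3.3, eBayes with a trended prior variance) on log2(TPM + 1). Benjamini-Hochberg adjustment ran over all isoforms tested, with a threshold of 0.05. The fit used 6 libraries for fractions and 4 for compartments. Differences are on the log2(TPM + 1) scale, which understates changes of low isoforms. Tables and plots were made with Python 3.11.15, pandas 2.3.3 and matplotlib 3.10.9. Tested on simulated data, 156 of 200 isoforms (10 TPM or more, moved by 3 on the log2 scale) were found again for polysomes against ribosome-free RNA, with 10 false calls among 19667, and 91 of 200 for neuropil against somata, with 2 among 20393.

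Members and lists were chosen with earlier results of these data known. Named with values were the 6 highest and 6 lowest differences among called members of at least 10 TPM in each comparison of fractions, the 5 highest and 5 lowest of at least 10 TPM with groups that do not overlap between compartments, members of genes with 3 member isoforms, the 10 highest in hippocampus, and cell type markers. Members named only as examples of a role group, and those said to be chosen after their values were seen, fall outside this rule. Some members that the rule names are not reported here. Alternatives changed the pseudocount (0.1 or 5), the filter (none or 5 TPM), the scaling, a constant prior variance, a replicate block, the libraries in the fit and each library left out.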

Additional observations from a re-analysis of the deposited data

How the results depend on the processing

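The median difference of the members between polysomes and ribosome-free RNA was 1.37 with a pseudocount of 0.1, 0.55 with a pseudocount of 5, 0.59 with no filter (every isoform above 0 in at least 1 library), 0.41 after quantile normalization and 0.48 after median ratios, and the members called lower were 14 and 16 under the last 2. Between monosomes and ribosome-free RNA the median was 1.08, 0.56, 0.65, 0.32 and 0.34 in the same order, with 23 and 21 members higher and 10 and 10 lower after quantile normalization and median ratios, and 3 lower with a mean of at least 5 TPM or with only the 4 libraries compared in the fit. Between neuropil and somata the median was -0.058 for isoforms of 5 TPM or more and -0.044 after quantile normalization. A fit added after seeing the data, which joined the pseudocount of 0.1 to an untrended prior variance, called 2 members lower in neuropil, Anapc4 and Trpc4, both listed at 0 in both neuropil libraries, and 1.01% of all isoforms higher and 1.27% lower. In hippocampus 114 members reached 0.1 TPM and 81 reached 5 TPM, and 92 and 102 reached 1 TPM in the single libraries. The cause of these changes was not tested, beyond what the scalings do to the common shift.

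Leaving out 1 library at a time, where a lone library was assumed to vary like the other groups, gave 29 to 44 members higher and 2 to 3 lower in polysomes than in ribosome-free RNA (median 0.74 to 1.12), 3 to 5 higher and 1 lower than in monosomes (median 0.063 to 0.20), 25 to 43 higher and 1 to 3 lower in monosomes than in ribosome-free RNA (median 0.79 to 0.97), and 0 calls with a median of -0.13 to 0.018 between neuropil and somata. Among named differences 2 turned negative in polysomes against ribosome-free RNA, Ncdn (-0.25 and -0.17) and Tmem9b of 2232 nt (-0.079 and -0.061), and 1 in monosomes against ribosome-free RNA, Krtcap2 of 673 nt (-0.17), under the scalings. Deviations of same-numbered libraries correlated at 0.0022, -0.0099, 0.0026 and 0.033. Whether libraries with the same number came from the same gradient or the same slices was not tested. With the replicate number as a block, 38 and 4 members passed for polysomes against ribosome-free RNA, 8 and 3 against monosomes, 36 and 3 for monosomes against ribosome-free RNA and 0 for neuropil against somata.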
